A study of Mus musculus with 3 samples.

Results

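The genes described here build and guard the protein-folding machinery of the endoplasmic reticulum (ER), and they were measured in activated regulatory T cells (Treg) of the mouse. They were chosen by symbol, as 35 listed genes of ER folding and the unfolded protein response, and each symbol was matched to its GENCODE M21 gene identifier. All 35 were found among 55536 annotated mouse genes. Ddit3 is the only symbol with a second identifier, which had 0 reads in each library, so 36 identifiers were read in all. Treg are CD4 T cells that express the transcription factor Foxp3 and restrain immune responses. The primary cells came from a male mouse aged 3 weeks, and their polyadenylated RNA was sequenced in 3 libraries, called library 1, library 2 and library 3. The labels name these technical replicates of 1 biological replicate, and leave unsaid the means of activation, whether animals were pooled and where in the protocol the libraries were split. There was 1 group and no resting or stressed sample, so no condition could be compared, and every SD describes variation among technical libraries (n = 3) rather than among animals.

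Secreted and membrane proteins enter the ER through the Sec61 channel and fold there with the help of chaperones and disulfide isomerases. Proteins that fail to fold are drawn back to the cytosol and destroyed, a route called ER-associated degradation. When unfolded protein builds up, 3 sensors in the ER membrane respond: IRE1 (gene Ern1) cuts a short intron from Xbp1 mRNA, ATF6 is cleaved into a transcription factor, and PERK (gene Eif2ak3) slows translation and favours that of ATF4. Together these arms make up the unfolded protein response, best known in lymphocytes for meeting the demand of antibody and cytokine secretion.

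The libraries held 30362256, 28419259 and 31959927 reads assigned to annotated genes. The label was checked against 8 Treg and T cell markers, all of which were detected, with Foxp3 at 135, 149.6 and 106 TPM. TPM is the read count divided by transcript length and scaled to a fixed total, so levels can be compared between genes. The libraries differed in red cell RNA. All 8 erythroid markers were detected, and their summed level was 14059, 1198 and 829 TPM in libraries 1, 2 and 3. In each other marker list 7 or fewer of the 8 or 10 markers were detected at 1 TPM in all libraries. Of the plasma cell list, whose cells are rich in ER chaperones and which itself holds Xbp1, 5 of 8 were detected. Igkc, an immunoglobulin chain of that list, had 576 ± 64.7 TPM, Irf4 27.9 ± 1.701 TPM, Prdm1 22.4 ± 8.65 TPM, Jchain 16.8 ± 7.63 TPM, Ighg2b 11.35 ± 16.99 TPM, Sdc1 0.473 ± 0.368 TPM and Tnfrsf17 0.163 ± 0.162 TPM. B cell markers were detected in 7 of 10 cases and summed to 387, 294 and 386 TPM, from Ighm at 295 ± 45.4 TPM, Cd79b at 32.2 ± 5.59 TPM and Cd79a at 11.6 ± 5.75 TPM down to Pax5 at 0.147 ± 0.167 TPM. The neutrophil list had 0 of 8 detected, with a summed level of 17.6, 2.65 and 3.19 TPM, and its marker Elane had 0 reads. In such bulk samples, fewer cells of a type and less RNA per cell cannot be told apart.

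Some of these genes carry near their start the element to which the stress factors ATF6 and XBP1 are known to bind, and its copies are printed because they show which members hold it and how. This ER stress response element (ERSE) was searched on both strands as CCAAT, 9 bases of any kind and CCACG in RefSeq promoters of build GRCm38, each running from 250 bases before to 50 bases after an annotated start. Promoters were found for 30 of the 35 genes. Atf6, Manf, Hyou1, Sec61a1 and Derl1 were not among them. The ERSE was in promoters of 9 of the 30 genes, or 30.0%, against 0.119% of all 32851 promoters of the table. The 30 genes had 31 promoters in it. They were listed for their part in this response, so the share is a description and not a test. In these stretches, written 5′ to 3′ along the gene, capitals mark both ends of the element, and the opposite orientation reads CGTGG then ATTGG.
Hspa5, chr2:34772020-34772048, plus strand: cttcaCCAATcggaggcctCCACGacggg
Calr, chr8:84847070-84847098, minus strand: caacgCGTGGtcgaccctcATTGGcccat
Hsp90b1, chr10:86705633-86705661, minus strand: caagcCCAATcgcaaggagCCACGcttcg
Hsp90b1, chr10:86705528-86705556, minus strand: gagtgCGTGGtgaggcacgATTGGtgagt
Canx, chr11:50325795-50325823, minus strand: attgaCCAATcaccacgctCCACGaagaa
Pdia6, chr12:17266486-17266514, plus strand: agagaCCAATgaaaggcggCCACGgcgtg
Dnajc3, chr14:118937822-118937850, plus strand: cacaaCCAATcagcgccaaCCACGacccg
Creld2, chr15:88819515-88819543, plus strand: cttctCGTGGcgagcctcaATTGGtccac
Syvn1, chr19:6046527-6046555, plus strand: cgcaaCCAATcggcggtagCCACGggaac
Derl3, chr10:75893237-75893265, plus strand: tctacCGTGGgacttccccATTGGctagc

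A shorter form, ERSE-II, which is ATTGG, 1 base of any kind and CCACG, was searched the same way. It was in promoters of 2 of the 30 genes, or 6.67%, against 0.0365% of all promoters. The genes are Herpud1 and Dnajb11, shown with the element in capitals.
Herpud1, chr8:94386372-94386392, plus strand: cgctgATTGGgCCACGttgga
Dnajb11, chr16:22857847-22857867, plus strand: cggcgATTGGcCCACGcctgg

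Shorter stress elements were also searched. The element TGATGCAA, to which ATF4 with a C/EBP partner can bind, was in promoters of 2 of the 30 genes, Chac1 and Herpud1. That is 6.67%, against 0.895% of all promoters. The core TGACGTGG, of the UPR element known as an XBP1 site, was in 0 of the 30, against 0.676% of all. These matches describe the letters in the window and are not evidence of binding. The 11 genes with an ERSE or ERSE-II ranged from 5.30 TPM for Derl3 to 323 TPM for Hspa5, with a median of 92.1 TPM. The 19 genes with neither ranged from 0.160 TPM for Chac1 to 461 TPM for Pdia3, with a median of 37.0 TPM, so the ranges overlapped over most of their width.

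Nearly every gene of the set was expressed. Detection, 1 TPM or more in all 3 libraries, was reached by 34 of 35, against 48.1% of 22028 protein-coding genes. Their median level was 72.6 TPM, against 1.17 TPM over all protein-coding genes and 30.05 TPM over the 10601 detected ones. Together they held 3503, 3388 and 3296 TPM in libraries 1, 2 and 3, which is 0.340 ± 0.0104% of all TPM. The highest 5 genes, the isomerases Pdia3 and P4hb, the chaperones Hspa5 and Calr and the translocon pore Sec61a1, carried 44.1% of it. Of the 35, 12 had a mean of 100 TPM or more, 6 were under 10 TPM and 14 lay above the 90th percentile of protein-coding genes.

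**Figure D1:**
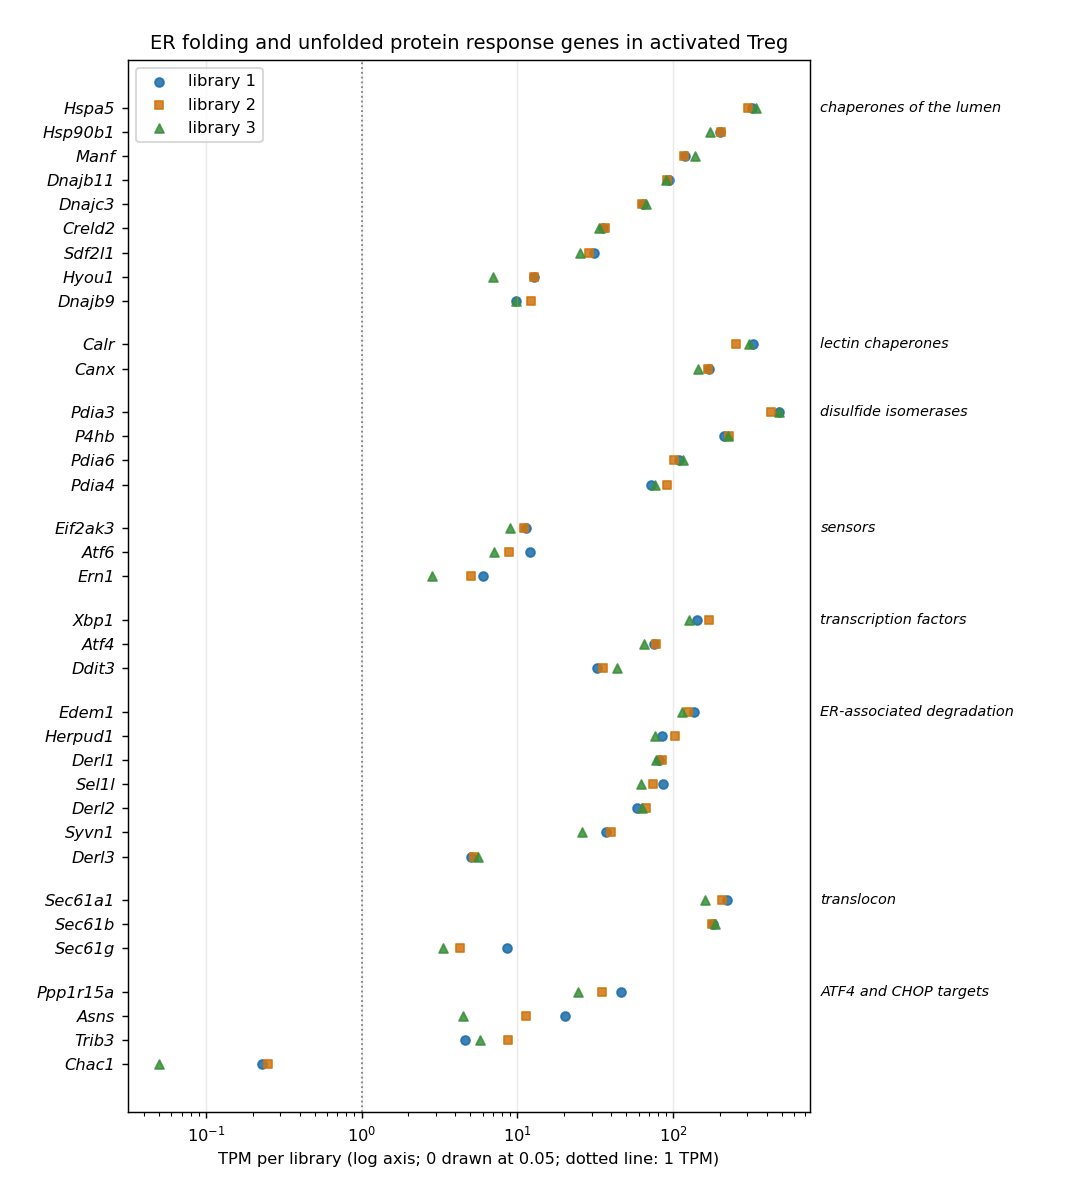
Level of each gene in TPM (log axis) in libraries 1, 2 and 3, 1 point a library, grouped by role. Folding genes reach up to 461 TPM on average, the 3 sensors lie between 2.83 and 12.1 TPM, and Chac1 lies below the dotted line at 1 TPM.

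Chaperones of the ER lumen summed to 881.5 ± 10.7 TPM, 25.96% of the set. Hspa5 encodes BiP, the ATP-driven chaperone that also holds the stress sensors inactive (chromosome 2, 34771970 to 34777547, build mm10, plus strand). It had 323, 303 and 342 TPM in libraries 1, 2 and 3, from 15102, 12983 and 18535 reads, and ranked 417 among protein-coding genes. Hsp90b1, which encodes GRP94, the ER form of HSP90 that folds integrins and Toll-like receptors, had 199.7, 204 and 173 TPM. BiP mRNA exceeded GRP94 mRNA in every library, by 0.75 ± 0.21 on the log2(TPM + 1) scale. A ratio was taken to exceed its spread if its sign was shared by the 3 libraries and its mean was over 2 SD. That was so for 19 of the 24 pairs examined, this one included.

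The helpers of BiP were graded over a wide range. Manf, a secreted stress-induced protein that binds BiP, had 119.7, 118 and 138 TPM. Dnajb11, a J-domain cochaperone that passes clients to BiP, had 94.2, 91.5 and 90.55 TPM, and its SD of 2.05% of the mean was the smallest of the 35 genes. Dnajc3, the cochaperone P58IPK, had 64.45, 62.75 and 66.7 TPM. Library 3 was the high one for Manf, and the libraries lay within a few percent of each other for Dnajb11 and Dnajc3. Dnajb9, the cochaperone ERdj4 that restrains IRE1, stood at 9.85, 12.2 and 9.75 TPM, so Dnajb11 exceeded it by 3.01 ± 0.18 and Dnajc3 by 2.51 ± 0.21 on the log2(TPM + 1) scale. Creld2, a secreted protein induced by ER stress, had 35.1 ± 1.76 TPM, and Sdf2l1, a partner of Dnajb11, 28.4 ± 2.95 TPM. Hyou1, which encodes GRP170, the nucleotide exchange factor of BiP, had 12.85, 12.86 and 6.96 TPM. It was thus low beside BiP itself, which exceeded it by 4.81 ± 0.54 on the log2(TPM + 1) scale.

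The calnexin cycle folds glycoproteins through lectin chaperones. Calr, soluble calreticulin (chromosome 8, 84841850 to 84846934, minus strand), had 323, 252 and 308 TPM. Canx, membrane-bound calnexin (chromosome 11, 50293961 to 50325673, minus strand), had 171, 169 and 145 TPM. Calr exceeded Canx in each library, by 0.86 ± 0.26 on the log2(TPM + 1) scale, though by coding transcripts alone the difference was 0.58 ± 0.30 and no longer over 2 SD. Pdia3 encodes the disulfide isomerase ERp57, which works with both and also serves in loading MHC class I (chromosome 2, 121413775 to 121438687, plus strand). By gene TPM it was the most abundant of the set, with 478, 425 and 479 TPM, and ranked 262 among protein-coding genes. By coding transcripts alone it had 296, 273 and 310 TPM, below Hspa5 at 306, 283 and 320 TPM.

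The other disulfide isomerases, which form and rearrange disulfide bonds, followed in the same order in each library. P4hb, the classical protein disulfide isomerase, had 211, 230.0 and 226 TPM, below Pdia3 by 1.05 ± 0.15 on the log2(TPM + 1) scale. Pdia6, which also helps to switch off IRE1, had 109, 102 and 115 TPM. Pdia4, the isomerase ERp72, had 72.1, 91.7 and 76.6 TPM. Pdia3 exceeded Pdia6 by 2.08 ± 0.04 on that scale, the tightest ratio of the 24 pairs. Pdia6 and Pdia4 did not differ beyond their spread (0.44 ± 0.25). The 4 isomerases summed to 872 ± 24.5 TPM, 25.7% of the set.

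The sensors were all detected and all scarce, together 0.718% of the set. Ern1, which encodes the kinase and endonuclease IRE1-alpha (chromosome 11, 106394650 to 106487852, minus strand), had 6.01, 5.01 and 2.83 TPM from 445, 408 and 150 reads. Eif2ak3, the kinase PERK, had 11.35, 11.05 and 8.92 TPM. Atf6, the membrane-held transcription factor, had 12.1, 8.80 and 7.07 TPM. Ern1 was below Eif2ak3 by 1.06 ± 0.28 and Atf6 above Ern1 by 0.89 ± 0.18 on the log2(TPM + 1) scale, while Atf6 and Eif2ak3 did not differ beyond their spread (-0.17 ± 0.22). Each of the 3 was highest in library 1 and lowest in library 3.

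The transcription factors that act below the sensors were far more abundant than the sensors. Xbp1 had 142, 169 and 126 TPM (chromosome 11, 5520659 to 5525893, plus strand). Atf4, translated when PERK or related kinases act, had 75.3, 77.5 and 64.9 TPM and lay below Xbp1 by 0.99 ± 0.11 on the log2(TPM + 1) scale. Ddit3, which encodes CHOP, a factor linked to death under lasting stress, had 32.3, 35.3 and 43.3 TPM. Xbp1 exceeded it by 1.95 ± 0.38. The exons of Ddit3 share 68 bases with the opposite-strand gene Mars, which had 39.5 to 54.0 TPM. Other genes of the set also overlap detected opposite-strand genes, among them Sec61a1 (549 bases), Hsp90b1 (415 bases) and Derl2 (231 bases). The strandedness of the libraries is not stated, so reads in these overlaps cannot be told apart.

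Genes downstream of ATF4 and CHOP were uneven between libraries. Asns had the largest SD of the detected genes relative to its mean, at 65.6%. Sec61g (51.5%) and Ern1 (35.2%) came before Trib3 (33.3%) and Ppp1r15a (31.4%). Ppp1r15a, which encodes GADD34, the phosphatase subunit that restores translation, had 46.5, 34.8 and 24.4 TPM. Asns, asparagine synthetase, had 20.3, 11.4 and 4.49 TPM. Trib3, a pseudokinase induced by CHOP, had 4.64, 8.74 and 5.73 TPM. Library 3 was lowest for Ppp1r15a and Asns but not for Trib3. Chac1, which degrades glutathione and is a sensitive marker of ATF4 activity, was the single undetected gene, with 7, 7 and 0 reads. The exact two-sided 95% Poisson interval is 2.81 to 14.4 reads for 7 reads and 0 to 3.69 reads for 0 reads, for counting error only. Neither Ppp1r15a against Ddit3 (-0.10 ± 0.66) nor Asns against Trib3 (0.66 ± 1.14) differed beyond the spread on the log2(TPM + 1) scale.

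All 7 genes of ER-associated degradation were detected, summing to 471 ± 40.5 TPM. Edem1, which hands mannose-trimmed glycoproteins to degradation, had 135, 125 and 113 TPM. Herpud1, a stress-induced scaffold of the complex, had 85.2, 103 and 76.2 TPM. Sel1l had 85.7, 74.3 and 61.8 TPM and Syvn1, the ubiquitin ligase HRD1 that it holds in place, 37.0, 40.2 and 26.05 TPM. By gene TPM Sel1l exceeded Syvn1 by 1.09 ± 0.19 on the log2(TPM + 1) scale, but by coding transcripts alone the sign turned: Sel1l had 32.9, 25.6 and 19.9 TPM and Syvn1 33.9, 36.6 and 23.1 TPM, a difference of -0.25 ± 0.23 that does not exceed the spread. Herpud1 likewise lay below Edem1 by gene TPM (-0.50 ± 0.20) and above it by coding transcripts alone (0.50 ± 0.12). Of the Derlins, which are membrane proteins of the exit channel, Derl1 had 81.1 ± 3.25 TPM, Derl2 63.0 ± 3.96 TPM and Derl3 5.30 ± 0.272 TPM. Derl2 exceeded Derl3 by 3.34 ± 0.08, while Derl1 exceeded Derl2 by 0.36 ± 0.09.

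The Sec61 channel has 3 subunits, of which the files gave high levels for alpha and beta and low ones for gamma. Sec61a1, the pore, had 220.25, 206 and 159 TPM, and Sec61b 179.9, 177 and 187 TPM. Alpha and beta did not differ beyond their spread (0.09 ± 0.28 on the log2(TPM + 1) scale). Sec61g had 8.57, 4.31 and 3.34 TPM from 102.0, 44.1 and 58.9 expected counts, so Sec61b exceeded it by 4.92 ± 0.61. Sec61g (chromosome 11, 16500530 to 16508484, minus strand) has a processed copy, Gm10177, annotated as a transcribed processed pseudogene (chromosome 9, 37252922 to 37253365, plus strand).

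The coding frame of the Sec61g transcript Sec61g-201 matched Gm10177 at 207 of 207 bases. Its first 60 bases are printed because they read the same in both places, at chr11:16506407-16506466 on the minus strand and at chr9:37252975-37253034 on the plus strand (mm10, from the M21 transcripts), with no base in capitals because none differs.
Sec61g and Gm10177: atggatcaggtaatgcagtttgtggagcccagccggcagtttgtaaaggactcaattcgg

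Gm10177 had 319, 279 and 309 TPM, so the authors' quantification placed 97.4%, 98.5% and 98.9% of the joint TPM on it in libraries 1, 2 and 3. The value of Sec61g is therefore uncertain, since reads from identical sequence can be divided between the copies. Sec61g-203 and Gm10177 share an unbroken run of 420 bases. Summed, both gave 327, 283 and 312 TPM, which would place the pair at rank 3 among the 35 genes. Of the other genes, 6 share some stretch of 50 bases with a gene outside their own locus, and 2 more, Hsp90b1 and Ddit3, share one only with annotations inside it. Sec61b shares 17.4% of its 50-base stretches with such copies, none of which reached 1 TPM, and the rest share under 10%.

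**Figure D2:**
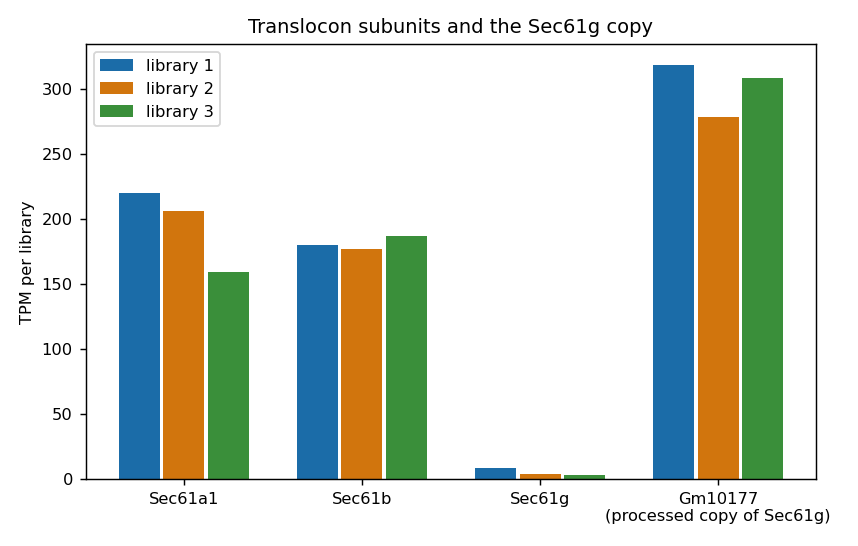
TPM of the Sec61 channel subunits and of Gm10177, the processed copy of Sec61g, with 1 bar for each library. Sec61g stands between 3.34 and 8.57 TPM and its copy between 279 and 319 TPM.

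Xbp1 mRNA is the substrate of IRE1, and the letters show what the files can and cannot tell. IRE1 removes 26 bases from exon 4, at chr11:5524279-5524304 (mm10, plus strand), which moves the reading frame so that the strong activator XBP1s is made. The window chr11:5524264-5524319 from the M21 transcript Xbp1-201 is shown with the 26 bases in capitals.
Xbp1-201: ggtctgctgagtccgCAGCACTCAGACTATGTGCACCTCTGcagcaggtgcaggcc

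Of the 4 annotated Xbp1 transcripts, 3 hold this intron, Xbp1-202 ends before it, and the joined sequence left after IRE1 cleavage is in 0 of 141767 annotated M21 transcripts. The share of Xbp1 mRNA spliced by IRE1 therefore cannot be read from these transcript tables. Xbp1-201, the coding mRNA of 2129 bases in 5 exons, took 81.6%, 79.0% and 82.2% of Xbp1 TPM in libraries 1, 2 and 3 (80.96 ± 1.702%). Xbp1-202, annotated as a retained intron, took 10.7 ± 0.595%. The short coding models Xbp1-203 and Xbp1-204 took 5.68 ± 1.08% and 2.71 ± 1.44%.

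Most of the other genes were also estimated as mainly coding mRNA. Among the 34 detected genes, the most abundant transcript was coding in 32, and coding transcripts took a median of 92.6% of the gene. That share was under 70% in 5 genes. Sel1l had 57.4 ± 3.63% of its TPM on retained-intron models and 35.02 ± 3.11% on coding ones, so its gene level is largely RNA not annotated to encode the scaffold. Edem1 had 46.8 ± 3.29% on its coding transcript. Pdia3-203, a model annotated for nonsense-mediated decay, took 35.5 ± 1.33% of Pdia3, and the coding Pdia3-201 63.6 ± 1.53%, or 293 ± 18.9 TPM. Derl3 had 64.7 ± 12.03% and Sec61g 61.1 ± 18.5% on coding models, from few reads. These are model-based estimates that depend on which transcripts the annotation holds.

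**Figure D3:**
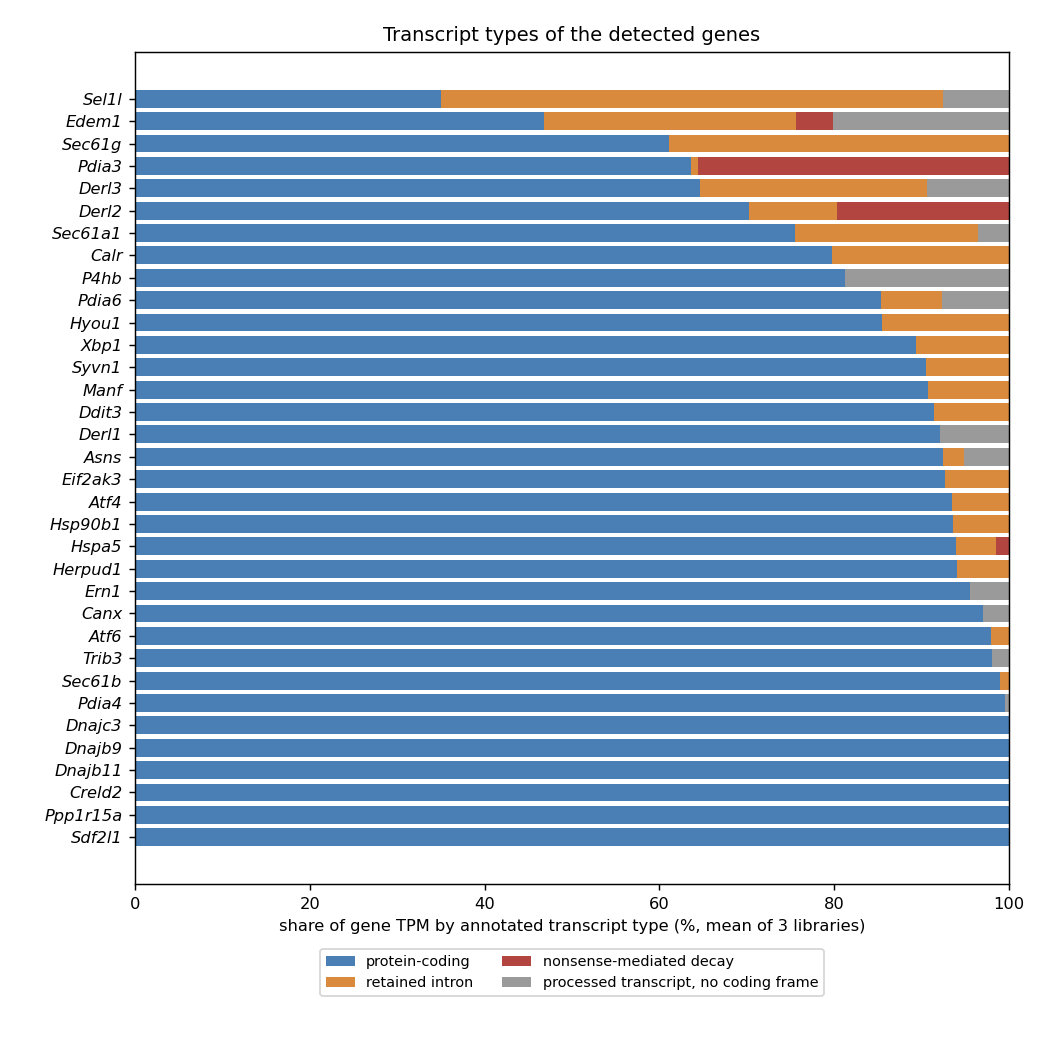
Share of each gene's TPM by annotated transcript type, in percent, as the mean of 3 libraries, for the 34 detected genes from the lowest coding share to the highest. Sel1l is at the top with 35.02% coding, and the median gene has 92.6%.

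The 3 libraries were then compared gene by gene with a chi-square test of the reads, adjusted by Benjamini-Hochberg over 17190 genes with a mean of 10 reads or more. It compares these libraries, not conditions. Of the 34 genes of the set tested, 31 differed at an adjusted p of 0.05, against 79.8% of all genes tested and 87.1% of those with a mean of 50 reads or more, so the count is read against a high background. Derl1 (adjusted p = 0.165), Derl3 (0.135) and Creld2 (0.619) did not pass. Without library 3, 18 of 34 passed, against 54.3% of all genes, and the 13 genes that lost their call were Ern1, Eif2ak3, Hyou1, Ddit3, Atf4, Hsp90b1, Canx, Dnajc3, Manf, Sdf2l1, Edem1, Derl2 and Sec61b. P4hb, Sdf2l1 and Sec61g lost it without library 1, and Dnajb9, Dnajb11 and Herpud1 without library 2. The test allows for counting error alone and has no term for further variation between libraries. At these depths small differences pass it, so the size of the differences is given next.

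Most of the differences were small. In genes with a mean of 100 reads or more, the median ratio of highest to lowest library was 1.22 in the 33 genes of the set, on reads scaled to library size (CPM), and 1.34 in all 11109 genes. A difference over 1.5-fold was seen in 7 genes of the set, against 32.1% of all genes. It was over 2-fold in Asns (4.35-fold) and Ern1 (3.27-fold), against 10.9% of all genes. Among the chaperones and isomerases with 100 TPM or more, the ratio was 1.33 for Calr, 1.24 for Manf, 1.22 for Pdia6, 1.203 for Pdia3, 1.197 for Hspa5, 1.13 for Canx, 1.12 for Hsp90b1 and 1.07 for P4hb, all past the chi-square test. Calr was thus near the median of all genes and the others below it.

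**Figure D4:**
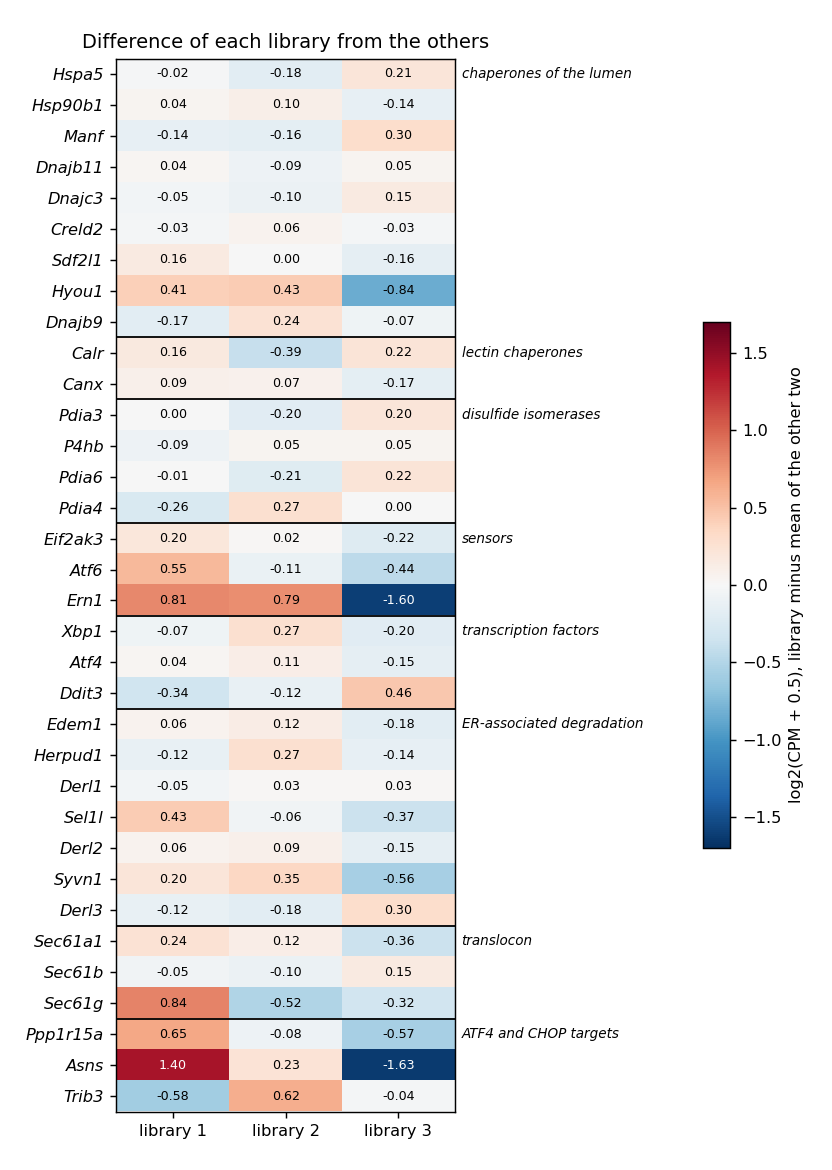
Difference of each library from the mean of the other libraries, in log2(CPM + 0.5), for the 34 genes tested, grouped by role. Ern1 and Asns in library 3 and Asns in library 1 are the deepest cells, at -1.60, -1.63 and 1.40.

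Library 3 was most often the lowest library, in the set as over all genes tested. It was lowest for 17 of 34 genes, against 41.4% of all genes tested, and highest for 11, against 34.5%. Library 1 was lowest for 7, against 30.2%, and highest for 10, against 32.8%. Library 2 was lowest for 10, against 28.4%, and highest for 13, against 32.6%. The median difference of library 3 from the mean of libraries 1 and 2 was -0.14 in the set and -0.04 over all genes on the log2(CPM + 0.5) scale. Among genes with a mean of 50 reads or more it was -0.14 in the set and -0.09 over all. Libraries 1 and 2 had medians of 0.04 each in the set, against 0.02 each over all genes. All 3 sensors were lowest in library 3, with Ern1 at -1.60, Atf6 at -0.44 and Eif2ak3 at -0.22. The chi-square test over all 3 libraries, which does not single out library 3, gave adjusted p = 3.21e-43, 4.03e-34 and 0.000389 for them, and without library 3 only Atf6 of the 3 kept its call. Syvn1 at -0.56, Ppp1r15a at -0.57, Hyou1 at -0.84 and Asns at -1.63 were also low in it, while Ddit3 at 0.46, Manf at 0.30, Calr at 0.22, Pdia6 at 0.22 and Hspa5 at 0.21 were high. The low group and the high group each hold genes induced by ER stress, so the set did not move as a unit.

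Several of the genes low in library 3 were highest in library 1. On the log2(CPM + 0.5) scale library 1 differed from the mean of the others by 1.40 in Asns, 0.65 in Ppp1r15a and 0.55 in Atf6. Sec61g had 0.84 in library 1 but was lowest in library 2 (-0.52). Its level is uncertain, and summed with Gm10177 it had 327, 283 and 312 TPM in libraries 1, 2 and 3. Ern1 was about as high in library 2 (0.79) as in library 1 (0.81). Trib3 went another way, with -0.58 in library 1 and 0.62 in library 2. Summed, the 28 other ATF4 and CHOP targets listed below had 1076, 1171 and 947 TPM in libraries 1, 2 and 3, highest in library 2. The 4 targets within the set had 71.7, 55.2 and 34.6 TPM and the sensors 29.4, 24.9 and 18.8 TPM, both highest in library 1. The erythroid list was also highest in library 1 (14059 TPM, against 1198 and 829 TPM). So were the dendritic list (715, 189 and 445 TPM, 3 of 8 detected) and the monocyte and macrophage list (126, 65.8 and 81.5 TPM, 5 of 8 detected). Most of the dendritic sum was Cd74, at 460, 138 and 301 TPM, with H2-Ab1 and H2-Aa. Of its 7 tested markers, 6 were highest in library 1 and 1, Flt3, in library 3. Of the 8 monocyte and macrophage markers, 6 were highest in library 1, Cd14 in library 2 and Itgam in library 3. The plasma cell list summed to 836, 881 and 685 TPM, most of it Igkc and Xbp1. Of its 7 tested markers, 5 were highest in library 1, 2 in library 2 and 0 in library 3, with Ighg2b at 30.9, 2.91 and 0.230 TPM, Jchain at 25.5, 13.9 and 11.05 TPM and Prdm1, which Treg also express, at 27.6, 27.2 and 12.4 TPM. The part of these cells in the library differences was not tested.

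Transcript length moved with library 3. Across 34 genes of the set, the Spearman coefficient between the length of the main transcript and the library 3 difference was -0.34, and over 17179 genes it was -0.27, as a description over genes that share their libraries. The 9 genes of the set with a main transcript over 3000 bases, among them Ern1, Atf6, Hyou1 and Eif2ak3, had a median of -0.22 in library 3, against -0.23 over all 5340 such genes. The 12 of up to 2000 bases had -0.09, against 0.09 over all 8101 such genes. With a trend in length and GC content removed across all genes, the median of the set in library 3 was -0.048 in place of -0.14. Asns, whose main transcript has 2001 bases, then had -1.62 in place of -1.63, Ern1 -1.28 in place of -1.60 and Hyou1 -0.54 in place of -0.84, while Eif2ak3 had 0.0083 in place of -0.22.

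**Figure D5:**
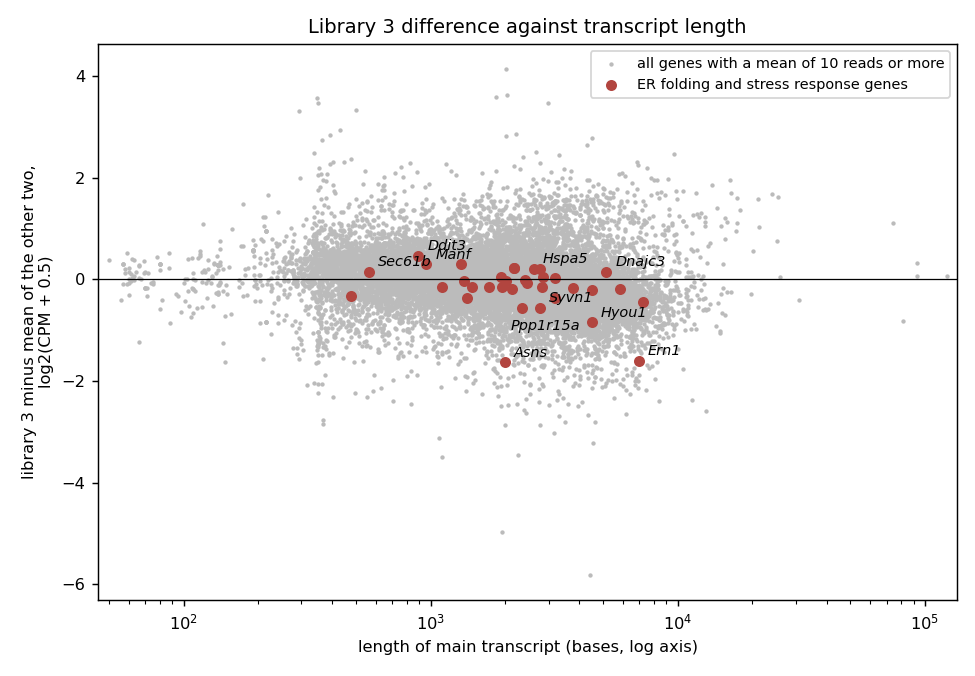
Library 3 minus the mean of libraries 1 and 2, in log2(CPM + 0.5), against the length of the main transcript in bases (log axis), for 17179 genes (grey) and the 34 genes of the set (red). Long transcripts lie lower in library 3, and Ern1 and Asns lie furthest below 0 within the set.

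The wider ER machinery was described with 7 lists of other genes of the pathway, of which 153 were found in the annotation. Of these, 129 were detected, against 48.1% of protein-coding genes. Of 141 tested, 131 differed between libraries, against 79.8% of all genes tested and 87.1% of those with a mean of 50 reads or more. In oxidative folding, 17 of 19 were detected with a median of 38.9 TPM, led by the selenoprotein Selenof at 343 ± 15.2 TPM, Tmx1 at 108 ± 2.20 TPM and Txndc5 at 90.5 ± 23.7 TPM, with Pdia5 lowest at 0.250 TPM. Chaperone cofactors were the sparsest list, with 12 of 20 detected and a median of 6.54 TPM. Ppib, the cyclophilin of the ER, led it at 307 ± 20.3 TPM, followed by Tor1a and Sdf2, and Calr4 was lowest at 0.0767 TPM. The glycan list, which adds and trims sugars, had 17 of 18 detected and the highest median, 128 TPM. Its leading genes were Dad1, Tmem258 and Ostc, all subunits of oligosaccharyltransferase, at 366 ± 40.9, 236 ± 38.1 and 193 ± 14.7 TPM, and Uggt2 was lowest at 0.817 TPM.

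All 21 genes of the translocon and signal peptidase list were detected, with a median of 100.6 TPM. The signal peptidase subunits Sec11c, Spcs2 and Sec11a led it at 310.4 ± 14.9, 299 ± 22.2 and 275 ± 21.3 TPM, and Tram2 was lowest at 5.48 TPM. The degradation list had 25 of 25 detected and a median of 61.8 TPM, with Aup1 at 381 ± 32.5 TPM, the unfolding ATPase Vcp at 269 ± 14.7 TPM and Selenok at 172 ± 3.65 TPM, and Trim13 lowest at 6.99 TPM. Among sensors and regulators, 17 of 22 were detected with a median of 39.5 TPM. Bax, Eif2s1, the target of PERK, and Tmbim6 led them at 244 ± 35.7, 142 ± 8.65 and 134 ± 12.8 TPM, and Ern2, the IRE1-beta gene known from gut epithelium, was lowest at 0.0167 TPM. Of other ATF4 and CHOP targets, 20 of 28 were detected with a median of 29.8 TPM, with Phgdh at 126 ± 4.64 TPM, Ddit4 at 115 ± 44.9 TPM and Slc3a2 at 114 ± 12.8 TPM, while Gdf15 had 0 reads. Ddit4 stood at 78.9, 165 and 99.8 TPM, highest in library 2 like Trib3 and unlike Asns and Ppp1r15a.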

How the data were processed

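Polyadenylated RNA was measured in 3 libraries of 1 group of activated Treg, called technical replicates of 1 biological replicate per the labels. Per the file headers, the gene and transcript tables have the layout of RSEM, with mm10 and GENCODE M21 names. Kit, strandedness and aligner are not stated in those sources. Expected counts as deposited by the authors are estimated reads per gene or transcript, and the posterior means are their second estimate. The authors' deposited TPM values are relative to length and library total, and their deposited FPKM values to length and read number. The percent of each transcript was deposited by the authors too, but shares were recomputed here from TPM. A smaller deposited table holds whole-number counts of 22457 genes and served as an alternative only. The 10 genes of the set with a mean of 5000 reads or more had a median of 24.4% of those reads in it, and the 10 with 100 to 1000 reads 55.0%.

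The genes, lists, pairs and tests were chosen with earlier results of these data known. Named genes are all 35 of the set, all Xbp1 transcripts, and of each other pathway list the 3 highest and the lowest by mean TPM. Of marker lists the highest gene and those at 0 reads were named by rule, and the other markers, Gm10177 and Mars were chosen after their values were seen. Expected counts were rounded and tested by chi-square with 2 degrees of freedom, given library sizes scaled by TMM factors of edgeR 4.0.16 in R 4.3.3, in genes with a mean of 10 reads, with Benjamini-Hochberg adjustment at 0.05. With 1 group no quasi-likelihood contrast exists. DESeq2 1.42.0 gave alternative size factors. Pair ratios used a pseudocount of 1 TPM and library differences 0.5 CPM. The chi-square step was tested on simulated data. Gene copies were found as shared 50-base stretches of M21 transcripts. Promoters are RefSeq's. Other steps ran in Python 3.11.15 with pandas 2.3.3, scipy 1.17.1 and numpy 2.4.6. Alternatives changed the thresholds, pseudocounts, estimates, normalization, filters and gene table, and left out each library.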

Additional observations from a re-analysis of the deposited data

How the results depend on the processing

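The median level of the 35 genes was 67.5 TPM by posterior means and 46.7 by FPKM, and their summed level 3165 TPM and 2190 by FPKM, in place of 3396 TPM. With Gm10177 added to Sec61g, an alternative chosen after the data were seen, the sum was 3698 TPM. Xbp1-201 held 90.2% of Xbp1 by expected counts, which favour long transcripts, in place of 80.96% by TPM. The count of genes that differed between libraries was 14 of 34 in the smaller table, where 64.9% of all genes passed, 30 with DESeq2 factors or gene totals, and 18 to 28 with 1 library left out. Sdf2l1 (adjusted p = 0.0445) had 0.0683 with DESeq2 factors, 0.191 with gene totals and 0.0690 with no filter. The library 2 difference ranged from -0.016 to 0.16 and that of library 3 from -0.16 to -0.048 with a library left out. For library 3 it was -0.066 with gene totals, -0.048 with the length and GC trend removed and -0.034 in the smaller table, against 0.026, -0.0054 and -0.017 over all genes. The sign of 3 pair ratios changed in the smaller table: Hspa5 to Hsp90b1 was -0.080, Calr to Canx -0.33 and Atf4 to Xbp1 0.28. Its counts are not divided by length, and it held unequal shares of the expected reads. The share was 24.3% for Hspa5 and 40.1% for Hsp90b1, and 20.5% for Calr and 24.5% for Canx. It was 54.5% for Atf4 and 20.4% for Xbp1. Undivided expected counts kept the sign in each library for Hspa5 to Hsp90b1 and Atf4 to Xbp1. For Calr to Canx they did so in library 3 alone, at 13059 against 11683 reads. The cause of these changes was not tested. By coding transcripts alone, also chosen after the data were seen, 17 of 24 pairs exceeded their spread in place of 19, and Sel1l to Syvn1 (-0.25) and Herpud1 to Edem1 (0.50) changed sign. Without library 3, Herpud1 to Edem1 no longer exceeded its spread and Sec61a1 to Sec61b did, as Atf6 to Eif2ak3 did without library 1 and Pdia6 to Pdia4 without library 2. No paired analysis was possible because there was 1 group. Values under about 100 reads, those of Chac1, Sec61g and Derl3, are limited by depth.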
